A study of Mus musculus with 8 samples.

Results

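The inhibitors of DNA binding (Id1, Id2, Id3 and Id4) and the SMAD genes of bone morphogenetic protein (BMP) signaling (Smad1, Smad5, Smad6, Smad7 and Smad9) were examined in cultured skin fibroblasts of mice with and without an Nd2 mutation. The 9 genes were read by 13 of the 25697 probes on the array, and each probe carrying one of these symbols was kept. The set was chosen by the intensity of Id1, which was very low in 2 of the mutant cultures, and the other 8 genes were added by family. Id1 is therefore described without a test. The other members were measured on the same arrays, so that a pattern they share with Id1 is not independent evidence.

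RNA came from primary skin fibroblast cultures of 12-month-old mice, 1 culture and 1 array per mouse, with 4 mice per strain. The Nd2-mutant strain was C57BL/6J-mtALR/LtJ (males 28 and 32, females 34 and 35) and the control strain was C57BL/6J-mtAKR/J (males 16 and 17, females 15 and 37). Both are conplastic: after repeated backcrossing they were regarded as having the nuclear genome of C57BL/6J with the mitochondrial genome of another strain. Their nuclear Id and Smad genes are thus taken to be of the same strain, which was not checked here. The mutant mitochondrial genome has a leucine to methionine change in Nd2, a subunit of complex I of the respiratory chain. The study asked whether this mutation alters senescence of skin fibroblasts, and the arrays compared the transcriptomes of the strains.

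BMP ligands bind paired type I and type II receptors at the cell surface, and the type I receptor then phosphorylates SMAD1, SMAD5 and SMAD9, which enter the nucleus with SMAD4. ID1, ID2 and ID3 are among the genes most directly switched on by this complex, and SMAD6 and SMAD7 are inhibitors that are induced by the signal and block it. ID proteins have no DNA-binding domain and hold back other helix-loop-helix transcription factors by pairing with them, which in fibroblasts is linked to continued proliferation and to delayed senescence.

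Promoter sequence was available for 7 of the 9 members, not for Id1 and Smad7. The 250 bases before the start of Id2, Id3 and Id4 (RefSeq, GRCm38.p6) are shown because these family members differed in how closely they followed Id1 across the arrays. Capitals mark 2 motifs bound by SMAD complexes, GTCT (read as AGAC on the other strand) and GGCGCC, searched on both strands. Id2 lies on the minus strand at chr12:25096093-25096342, Id3 on the plus strand at chr4:136143572-136143821 and Id4 on the plus strand at chr13:48260866-48261115, and each window ends at the base before the start.
Id2: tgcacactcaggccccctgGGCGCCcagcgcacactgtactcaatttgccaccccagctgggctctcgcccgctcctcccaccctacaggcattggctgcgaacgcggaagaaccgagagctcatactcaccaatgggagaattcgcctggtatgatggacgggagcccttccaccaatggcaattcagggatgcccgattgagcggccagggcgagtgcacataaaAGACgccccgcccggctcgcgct
Id3: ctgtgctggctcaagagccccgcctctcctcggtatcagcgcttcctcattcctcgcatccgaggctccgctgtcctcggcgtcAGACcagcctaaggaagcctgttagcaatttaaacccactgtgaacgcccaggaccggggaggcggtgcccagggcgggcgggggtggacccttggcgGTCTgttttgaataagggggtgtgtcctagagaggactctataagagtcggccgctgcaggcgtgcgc
Id4: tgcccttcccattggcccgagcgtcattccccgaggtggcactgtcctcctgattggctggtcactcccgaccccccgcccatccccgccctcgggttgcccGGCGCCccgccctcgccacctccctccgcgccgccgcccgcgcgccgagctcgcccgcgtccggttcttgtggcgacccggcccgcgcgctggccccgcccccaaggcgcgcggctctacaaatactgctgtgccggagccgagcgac
The Id2 window held 1 GTCT and 1 GGCGCC, the Id3 window 2 GTCT and no GGCGCC, and the Id4 window 1 GGCGCC and no GTCT. The GC content was 62.8% for Id2 and for Id3 and 75.6% for Id4. Of the 32851 RefSeq promoter windows, taken over the same 250 bases, 82.9% held a GTCT and 9.59% a GGCGCC. These matches are letters in a window and were not tested as binding sites.

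A probe was detected on an array if its detection p-value was under 0.01, and tests were limited to probes with 4 of 4 arrays detected in either strain or both. This left 10414 probes of 8003 genes, and 8 of the 13 member probes, for Id1, Id2, Id3, Id4, Smad1 (2 probes) and Smad5 (2 probes). The mutant arrays had 10973 to 11350 detected probes and the control arrays 10663 to 10837. The array of control mouse 15 stood somewhat apart, its correlation with the rest averaging 0.934 against 0.963 to 0.974 for each other array. Xist was detected on 4 of 4 arrays of female mice and on none of males, and Eif2s3y and Jarid1d the other way round, while at least 1 of 3 probes of Ddx3y was detected on all 8. Each of the 13 fibroblast markers (such as Col1a1, Pdgfra and Thy1) was detected. Values are normalized intensities, and differences are on the log2 scale after adding 16, which understates the change of dim probes.

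Id1, the ID family member most often used as a readout of BMP signaling, was read by ILMN_2672190 (chromosome 2). Its intensity was 1441 and 1672 on the arrays of the male Nd2-mutant mice 28 and 32, and 125.5 and 86.1 on those of the female Nd2-mutant mice 34 and 35. The male controls 16 and 17 had 1276 and 1097, and the female controls 15 and 37 had 1932 and 1287. The low cultures were thus both from female mutants, and the lowest of the other 6 arrays was 8.73 times as bright as the brighter of these. The strain means, 831 ± 843 in mutants and 1398 ± 367 in controls (SD, n = 4 each), hide this split, and the strains overlapped. The mutant minus control difference of log2 values was -1.67 over all mice, 0.39 in males and -3.73 in females.

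Id3, which is close to Id1 in sequence and regulation, showed the same division of the arrays at a smaller scale (ILMN_2687169, chromosome 4). Intensities were 348.5 and 399.4 in the male mutants and 113 and 116 in the female mutants. The male controls had 454.5 and 353.3 and the female controls 347.1 and 317.8. The female mutants lay below all other mice, with the lowest of the other 6 at 2.74 times the higher of them, whereas the male mutants lay within the range of the controls. Over all mice the strain means were 244 ± 151 and 368 ± 59.6 (SD, n = 4 each) and the log2 difference was -0.76 (SE 0.37, 95% interval -1.59 to 0.07), which did not pass the test (limma adjusted p = 0.639). The difference was -0.10 in males and -1.42 in females.

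Id2, which besides helix-loop-helix factors is known to bind the retinoblastoma protein, was also lowest in the female mutants (ILMN_1228557, chromosome 12). The male mutants had 174.3 and 130.8 and the female mutants 15.9 and 28.1. The male controls had 158.5 and 76.4 and the female controls 85.5 and 59.7. The highest value thus belonged to a male mutant and the lowest to a female mutant, and the lowest of the other 6 was 2.12 times the higher female mutant. The strain means were 87.3 ± 77.6 and 95 ± 43.6 (SD, n = 4 each), with a log2 difference of -0.41 (SE 0.53, 95% interval -1.59 to 0.76) and a limma adjusted p of 0.821. By sex the difference was 0.40 in males and -1.22 in females, and leaving out female mutant 34 turned the pooled value to 0.02. The other Id2 probe, ILMN_2887239, was detected on 1 of 8 arrays, with values from 1.51 to 13.6, and was not tested.

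Id4, the ID protein that can oppose the other family members, did not divide the arrays in this way (ILMN_2678714, chromosome 13). It read 177.8 and 143.5 in male mutants, 179.6 and 101.1 in female mutants, 198.3 and 167.9 in male controls and 178.5 and 218.3 in female controls. The highest of the mutants was a female and so was the lowest, and the strains overlapped. The means were 150 ± 36.9 and 191 ± 22.3 (SD, n = 4 each), and the log2 difference of -0.34 (SE 0.18, 95% interval -0.75 to 0.07) did not pass the test (limma adjusted p = 0.648). Without mutant 35 it was -0.18.

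**Figure D1:**
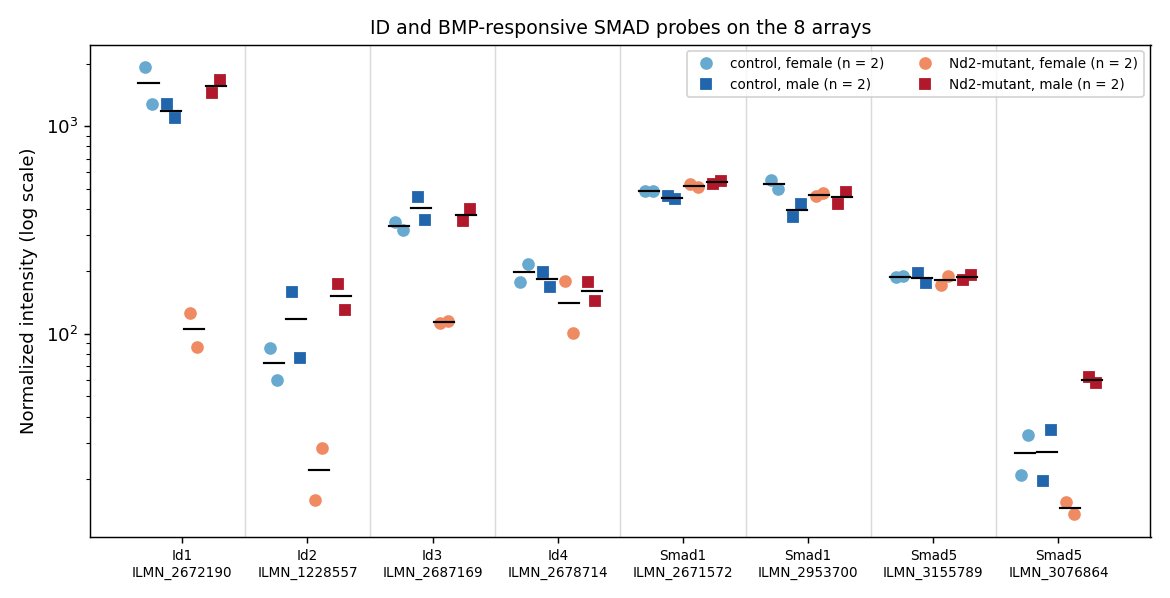
Normalized intensity (log scale) of the 8 tested member probes on each of the 8 arrays, with points for mice, circles for females, squares for males and black bars for the mean of the 2 mice of a strain and sex. The female mutants lie apart below all other mice for Id1, Id2 and Id3. For the Smad5 probe ILMN_3076864 they are lowest by a small margin, the next mouse being 1.26 times as bright, and the male mutants are highest. The female mutants do not lie apart as a pair for Id4 and the Smad5 probe ILMN_3155789, where 1 of them is the lowest mouse.

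Smad1, one of the SMADs phosphorylated by BMP receptors, had 2 tested probes (chromosome 8). For ILMN_2671572 the mutants read 528.4, 548, 529.7 and 507.7 (mice 28, 32, 34 and 35) and the controls 489.6, 460.3, 445.9 and 488.7 (mice 15, 16, 17 and 37). Every mutant was above every control, by a small margin, as was the case for 2.24% of all tested probes. The means were 528 ± 16.5 and 471 ± 21.6 (SD, n = 4 each). The log2 difference was 0.16 (SE 0.12, 95% interval -0.10 to 0.43), with a limma adjusted p of 0.703. The exact 2-sided permutation test gave p = 0.0286, the smallest that 4 against 4 can give.

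The other tested Smad1 probe did not show this. ILMN_2953700 read 424.9, 483.8, 461.3 and 477.4 in the mutants and 553.4, 366.9, 420.6 and 501.7 in the controls, in the same order of mice. Its female controls were highest and its male controls lowest, with all mutants between them. The means were 462 ± 26.4 and 461 ± 83 (SD, n = 4 each), with a log2 difference of 0.02 (SE 0.15, 95% interval -0.32 to 0.36, limma adjusted p = 0.979). A further Smad1 probe, ILMN_1234354, was detected on 1 of 8 arrays.

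Smad5, which acts alongside SMAD1, also had 2 tested probes (chromosome 13), and these disagreed. ILMN_3155789 was flat, with 182.2, 192.2, 171.7 and 190.4 in the mutants (mice 28, 32, 34 and 35) and 187.3, 196.4, 175.2 and 190.9 in the controls (mice 15, 16, 17 and 37). The log2 difference was -0.02 (SE 0.12, 95% interval -0.29 to 0.25, limma adjusted p = 0.961), and the ranges of the strains overlapped almost entirely. The dimmer ILMN_3076864 had 62.2 and 58.3 in the male mutants and 15.5 and 13.5 in the female mutants. Its controls lay between, at 19.5 and 34.3 in males and 21.0 and 32.4 in females. The male mutants were highest and the female mutants lowest of the 8 mice, and the opposite differences of 0.85 in males and -0.47 in females left a pooled log2 difference of 0.19 (SE 0.33, 95% interval -0.54 to 0.91, limma adjusted p = 0.866). The study listed Smad5 among the genes downregulated in Nd2-mutant fibroblasts. The listed decrease was larger than either probe gave here on the linear scale, -3.34 for ILMN_3155789 and 10.6 for ILMN_3076864. The reason was not tested, and which transcripts each probe reads was not determined.

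Of the inhibitory SMADs and Smad9, only Smad6 was detected on any array. Smad6 (ILMN_3008748, chromosome 9) was detected on 3 of 4 arrays of each strain and so was not tested. It read 66.3 and 22.6 in male mutants, 23.9 and 7.40 in female mutants, 14.9 and 14.2 in male controls and 8.90 and 17.5 in female controls. The highest value was that of mutant 28 and the strains overlapped. Smad7 (ILMN_2759660, chromosome 18), which restrains both BMP and TGF-β receptors, and Smad9 (ILMN_2772103, chromosome 3), the remaining BMP-activated SMAD, were detected on 0 of 8 arrays and have no level here.

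Of the 7 tested member probes other than Id1, 4 were lower and 3 higher in mutants, with a median log2 difference of -0.02, against 0 over all tested probes. None passed an adjusted p of 0.05 in the strain comparison, and none had an unadjusted limma p under 0.05. Over all tested probes 0 of 10414 (0%) passed the adjusted threshold, with a smallest adjusted p of 0.639, and 795 (7.63%) had an unadjusted p under 0.05. Of the 7, 1 separated the strains without overlap, the Smad1 probe above, against 4.37% of all tested probes. In bulk cultures fewer cells of a type and less RNA per cell cannot be told apart. The labels do not say how cultures were spread over chips or days, and p-values measure the spread between these cultures.

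**Figure D2:**
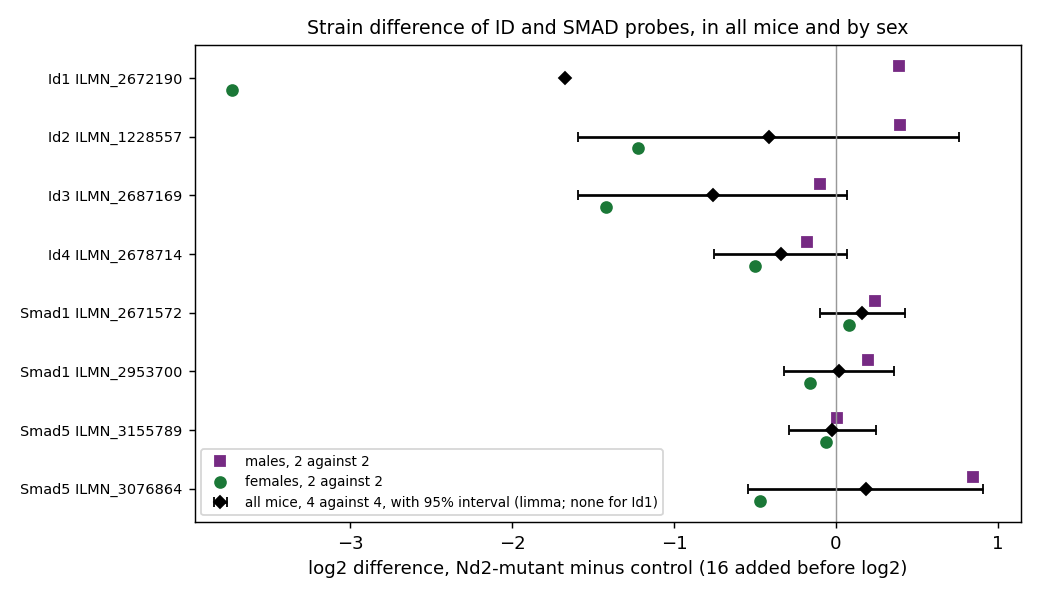
Log2 difference in normalized intensity, Nd2-mutant minus control, for each tested member probe, over all mice with the 95% interval of limma (no interval for Id1) and within each sex. The intervals all include 0, and for Id1, Id2, Id3 and the Smad5 probe ILMN_3076864 the female value lies far to the left of the male value.

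Because the low Id1 cultures shared a strain and a sex, the strain difference in males was compared with that in females (the interaction, 2 arrays in each of 4 groups). Without Id1, 7 of 7 member probes had a value above 0, against 46.1% of all tested probes. For Id2 the strain difference was 1.62 higher in males than in females (SE 0.48, 95% interval 0.52 to 2.72), for Id3 1.32 higher (SE 0.30, 95% interval 0.64 to 2) and for the Smad5 probe ILMN_3076864 also 1.32 higher (SE 0.34, 95% interval 0.54 to 2.11). Their unadjusted limma p-values were 0.0092, 0.00194 and 0.00433, and the adjusted p was 1 for each, so that none passed the test. By size these interactions ranked 28, 54 and 52 among the 10414 tested probes. An unadjusted p under 0.05 was thus seen for 3 of 7 member probes, against 1.76% of all tested probes, and all 3 had a value above 0, against 0.941%. The contrast was chosen from the Id1 values on the same arrays. These shares, and the counts of female mutants that follow, are therefore not independent evidence of a shared pattern.

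The remaining members had smaller values, 0.32 for Id4 (SE 0.40, 95% interval -0.58 to 1.23), 0.16 and 0.36 for the Smad1 probes ILMN_2671572 and ILMN_2953700, and 0.07 for the Smad5 probe ILMN_3155789. The value for Id1 was 4.12, given without a test. With the Id1 probe, which chose the set, kept out of the count, 0 of 10413 tested probes (0%) passed an adjusted p of 0.05 for the interaction in limma, and 183 had an unadjusted p under 0.05. Both female mutants were below the other 6 mice for 3 of the 7 member probes, against 512 of all tested probes (4.92%), while 498 (4.78%) had both female mutants above. For 2 of the 7, the Smad5 probe ILMN_3076864 and the Smad1 probe ILMN_2953700, every male mutant was above the male controls and every female mutant below the female controls, against 1.25% of all tested probes.

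**Figure D3:**
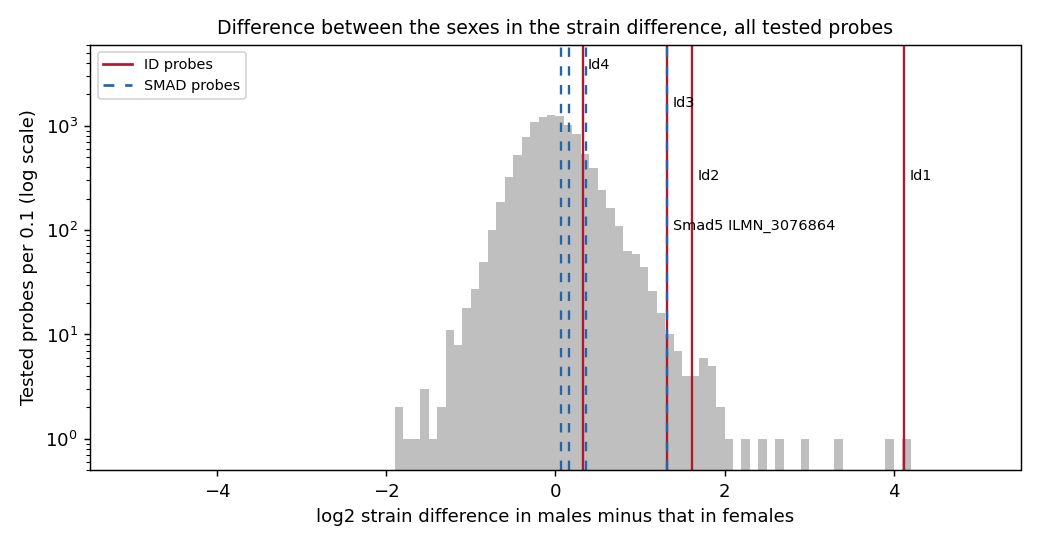
Number of tested probes (log scale) by the log2 strain difference in males minus that in females, with vertical lines at the 4 ID probes (solid) and the 4 SMAD probes (dashed). Id1 lies at 4.12, Id2 at 1.62, and Id3 and the Smad5 probe ILMN_3076864 together at 1.32, to the right of most of the 10414 probes, while Id4 and the other SMAD probes lie within the bulk.

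The tested probes most like Id1 across the 8 arrays were Axud1 (Pearson r = 0.978 on the log2 scale), 1810011O10Rik (0.969), Id3 (0.964), Fosb (0.961) and Pfkm (0.958). Axud1 read 182.3 and 122 in the female mutants and 667.8 to 1132 in the other 6 mice. Fosb, an AP-1 subunit induced within minutes of a stimulus, read 120.9 and 73.8 against 827.3 to 1720. For both genes the female mutants lay below all other mice.

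Id3 ranked 3 and Id2 ranked 71 (r = 0.849) of the 10413 other tested probes, followed by the Smad5 probe ILMN_3076864 at 504 (r = 0.649) and Id4 at 806 (r = 0.570). These values rest on the female mutants. Over the other 6 mice r with Id1 was -0.024 for Id3, 0.158 for Id2, 0.046 for that Smad5 probe, -0.117 for Fosb and 0.558 for Axud1, so that among these mice Id2 and Id3 did not follow Id1. The probes most opposite to Id1 were Ppap2b (r = -0.971), 2610044O15Rik (-0.969), Nme4 (-0.947), Snx9 (-0.938) and Zfp64 (-0.937). Ppap2b, a lipid phosphate phosphatase, read 204 and 282.2 in the female mutants and 54.5 to 96.7 in the others.

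Around the members, 113 genes of BMP signaling and ID function were listed in 8 groups by role, and 62 of them were tested with 75 probes. Of these probes 36 were lower and 39 higher in mutants, with a median log2 difference of 0.01. None passed an adjusted p of 0.05, while 6 higher and 3 lower had an unadjusted p under 0.05, against 4.5% and 3.13% of all tested probes. The adjusted p of each of these 9 was 0.639.

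Among the ligands 3 of 14 were tested. Bmp4, a ligand made by dermal fibroblasts, read 13.6, 26.0, 9.78 and 21.5 in the mutants (mice 28, 32, 34 and 35) and 92.7, 60.9, 31.4 and 119 in the controls (mice 15, 16, 17 and 37). Every mutant was below every control, as for 2.13% of all tested probes. Bmp4 was detected on 3 of 4 mutant arrays and on 4 of 4 control arrays. The log2 difference was -1.37 (SE 0.30, exact permutation p = 0.0286), with the smallest limma p among the listed genes. The male mutants were below both male controls, and the strain difference was 1.18 higher in males than in females (SE 0.45, limma adjusted p = 1). A part of Bmp4 in the Id1 levels was not tested.

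For the receptors 10 of 11 genes had 13 tested probes, 9 of them higher in mutants, with a median of 0.09. The BMP type II receptor Bmpr2 read 12.3 to 32.6 in mutants and 12.4 to 27.6 in controls. The co-receptor Tgfbr3 (betaglycan) had 72.0, 32.7, 43.9 and 31.1 in the mutants and 9.53, 4.45, 19.5 and 19.2 in the controls for ILMN_2606601, without overlap (log2 difference 1.05, SE 0.24, exact permutation p = 0.0286). This dim probe was detected on only 2 of 4 control arrays. All mutants were above all controls for 2.24% of all tested probes. The brighter Tgfbr3 probe ILMN_2789239 overlapped between the strains, at 0.34 (SE 0.16). The antagonists, which bind ligands outside the cell, had 5 lower and 5 higher of 10 tested probes. Chordin (Chrd) read 29.3 to 39.0 in mutants and 46.7 to 76.2 in controls (log2 difference -0.51, SE 0.16), and the secreted protease Htra1 280.1 to 456 against 460.7 to 546.2 for ILMN_2966104 (-0.47, SE 0.16). The other Htra1 probe, ILMN_2746738, overlapped between the strains (-0.29, SE 0.20). None of these passed the adjusted test.

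The other SMADs and their nuclear partners were balanced, with 5 lower and 5 higher of 10 probes and a median of 0.03. Smad2 and Smad3, which carry TGF-β rather than BMP signals, had log2 differences of 0.17 (SE 0.16) and -0.26 (SE 0.24). The repressor Tgif1 had 0.55 (SE 0.20) for its dim probe ILMN_2767113, and 0.38 and -0.11 for its other probes. Regulators of SMAD phosphorylation and turnover had 12 tested probes for 8 of 15 genes, several of them for Ppm1a and Ctdsp1. Of these probes 11 were higher in mutants and 1 lower, with a median of 0.21, and Wwp1, counted as higher, was at 0 after rounding. Over all tested probes 49.8% were lower. The phosphatase Ppm1a, which removes phosphate from receptor-activated SMADs, was at 0.57 (SE 0.25) for ILMN_1257193 and at 0.31 and 0.38 for its other probes, and the phosphatase Ctdsp1 at 0.35 (SE 0.15) for ILMN_2714397 and at 0.12 and 0.02 for its other probes. None of the 12 passed the adjusted test.

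Other genes known to be induced by BMP had 11 of 12 tested probes (10 of 18 genes) below 0, against 49.8% of all tested probes. Several of the 12 were for Cdkn1a. The median was -0.24, and 0 passed at either the adjusted or the unadjusted threshold. The female mutants were below the other 6 mice for 4 of the 12, against 4.92% of all tested probes, and these 4 genes are named after their values were seen. Hey1, a Notch and BMP target, read 5.48 (not detected) and 12.2 in the female mutants and 105.9 to 533 in the others. Hes1, a related repressor, read 458.4 and 384.9 against 564.5 to 1697. The helix-loop-helix factor Atoh8 read 13.9 and 12.0 against 30.3 to 144, and the T-box repressor Tbx3 53.4 and 58 against 67.8 to 217.6.

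Hey1 had the widest gap of these. Its strain difference was 3.36 higher in males than in females (SE 0.79) and that of Hes1 1.99 higher (SE 0.58), and the limma adjusted p was 1 for both. The same placing of the female mutants was seen, again chosen after the values were seen, for Skil, a SMAD co-repressor, with 369.1 and 389.5 against 640.8 to 1271, and for Bhlhb2, a helix-loop-helix repressor that is also known as Bhlhe40, with 644.4 and 786 against 1377 to 2144. Over all 75 listed probes it held for 7, against 4.92% of all tested probes. The remaining one, for Ets2, did so by a narrow margin, with 617 and 735.3 against 737.8 to 1357.

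**Figure D4:**
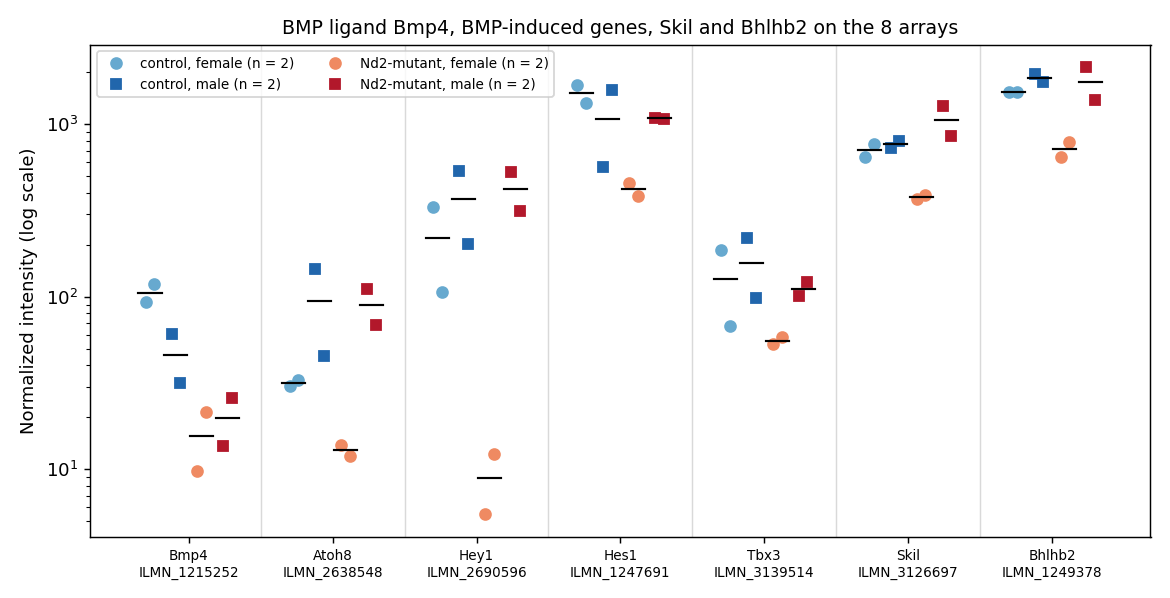
Normalized intensity (log scale) of the ligand Bmp4, of the BMP-induced genes Atoh8, Hey1, Hes1 and Tbx3, and of Skil and Bhlhb2 on the 8 arrays, with circles for females, squares for males and black bars for the mean of the 2 mice of a strain and sex. Bmp4 is low in all 4 mutants, whereas for the other 6 genes, picked for this pattern, the female mutants alone lie at the bottom.

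The binding partners of ID proteins had 5 lower and 5 higher of 10 tested probes. Twist1, a helix-loop-helix factor of mesenchymal cells, read 238.3 to 326.5 in mutants and 162.4 to 232.6 in controls, without overlap (log2 difference 0.44, SE 0.16). The same order of the strains held for 2.24% of all tested probes. The E proteins Tcf3, Tcf4 and Tcf12, the main partners, were each tested, and none had an unadjusted p under 0.05. Of 8 probes for genes that ID proteins are known to restrain, 5 were lower and 3 higher. Thrombospondin 1 (Thbs1), which ID1 represses in other cells, read 1343 and 904.7 in male mutants, 1018 and 562.7 in female mutants, 266.2 and 390.8 in male controls and 245.3 and 821.8 in female controls (log2 difference 1.22, SE 0.37). Both male mutants were above both male controls, while the ranges of the females overlapped. A part of Id1 in the Thbs1 levels was not tested. The cell cycle inhibitors Cdkn1a, Cdkn1b, Cdkn1c, Cdkn2a and Cdkn2b had no unadjusted p under 0.05.

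Other gene lists were set beside the low Id1 cultures. Of 23 tested probes for immediate early genes, 21 had an interaction above 0, with a median of 0.82 against -0.03 over all tested probes, 6 had both female mutants lowest (Fosb, Jund1, Atf3, Nr4a2, Dusp1 and 1 of 3 Klf4 probes), against 4.92% of all tested probes, and 0 passed the adjusted test. Their mean log2 level was 8.71 and 8.78 in the female mutants and 8.72 to 9.60 in the others. The Cyr61 probe ILMN_2710253 had both female mutants highest, at 717.6 and 677.3 against 66 to 628.1 in the others. Egr1 was not lowest in the female mutants, at 4104 and 4857 against 2011 to 6942. Summed over 10 keratinocyte genes on the array, of which 3 were never detected, the intensity was 200.3 and 231.9 in the female mutants and 330.2 to 1196 in the others, with Krt14 at 38.3 and 77.9 against 165.7 to 1007. Krt10, the other tested keratinocyte probe, ran the other way, at 150.4 and 131 against 90.9 to 131.2. The mean log2 level of the tested adipocyte probes (Pparg and Lpl) was 9.40 and 9.91 in the female mutants against 8.07 to 9.29. The 8 adipocyte genes on the array summed to 4601 and 7057 in the female mutants against 1629 to 5088 in the others, and 4 of them, Fabp4 included, were never detected. The part of these in the low Id1, Id2 and Id3 values was not tested.

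The summed intensities of the other marker lists in the female mutants lay within or overlapped the range of the other 6 mice, except that macrophage markers reached 1973 in 1 female mutant against at most 625.8 in the others. Proliferation genes summed to 10240 and 13230 in the female mutants and 9405 to 14710 in the others, fibroblast markers to 48410 and 58490 against 41140 to 65150, and endothelial markers to 563.8 and 926.3 against 393.9 to 2266, with Kdr and Erg never detected. Melanocyte markers summed to 69.2 and 162.9 against 68.2 to 259.7. The sum of smooth muscle and pericyte markers divided the strains instead, at 307.8 to 392.3 in mutants and 426.8 to 1382 in controls. Several of the 7 tested probes were for Mcam, and Cnn1 and Rgs5 were never detected. Myh11, Des, Cspg4 and the Mcam probe ILMN_2955919 overlapped between the strains. Notch3 and the other Mcam probes did not, as was the case for 4.37% of all tested probes.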

How the data were processed

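Total RNA of each culture was made into labelled cRNA, which was hybridised to an Illumina MouseRef-8 v2.0 array, 4 arrays per strain. The deposited intensity values are linear, after quantile normalization and background subtraction in GenomeStudio by the authors. The deposited detection p-value was computed by the authors' software. The 2 deposited tables hold the same values, so that normexp with quantile normalization was not run, and with no chip named, a chip block could not be fitted.

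Strain and sex were taken from the labels. Negative values were raised to 0 and transformed as log2(intensity + 16). For 2-sided tests limma 3.58.1 (lmFit, eBayes; R 4.3.3) was used, and p-values were adjusted over the 10414 tested probes by the Benjamini-Hochberg method. Single probes were also put through an exact permutation test. Probes were tested as described above, and the number of arrays limits the precision. Steps were checked on simulated data.

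Id1 entered the fit but no count of calls for the interaction. The members, lists and rules were chosen with earlier results of these data known. Named were all member probes, listed genes with an unadjusted strain p under 0.05 (at most 20), and the 5 probes most and least correlated with Id1. Symbols were matched through RefSeq synonyms. Alternatives were 1 or 50 added, the linear scale, other detection filters, median centring, the t-test of the methods, a trend, array weights, sex as a term, each sex alone and leaving out each mouse.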

Additional observations from a re-analysis of the deposited data

Results flagged for a closer look

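Of the 7 tested member probes other than Id1, 2 had every male mutant above both male controls and every female mutant below both female controls, against 1.25% of all tested probes. Id1, which chose the set, had the same order. The strain difference in males minus that in females was 4.12 for Id1, where it was not tested, 1.32 for the Smad5 probe ILMN_3076864 and 0.36 for the Smad1 probe ILMN_2953700, both Smad probes with a limma adjusted p of 1. The Smad5 probe ILMN_3155789 did not show this (0.07). Of 40 groups of 4 values examined, 0 held a value apart from the rest by Dixon's criterion, against 2 by chance. The criterion looks for 1 value apart, so that it could not flag a pair of low values such as that of Id1.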

How the results depend on the processing

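Of the member probes tested in the main run, none passed the adjusted test under any alternative run, in either comparison, with Id1 not tested. Member probes that the main detection filter left out were not counted in these runs. Over the alternatives the adjusted p for the strain difference ranged from 0.423 to 0.89 for Id3 and from 0.689 to 0.993 for Id2, and for the interaction from 0.204 to 1 for Id3, from 0.224 to 1 for Id2 and from 0.231 to 1 for the Smad5 probe ILMN_3076864. Over all probes the strain comparison gave 3 calls with no filter on detection and 1 with the t-test of the methods, in place of 0. The interaction, with Id1 kept out of the count, gave 1 with a trend and 0 to 1 without 1 mouse (1 without control 15 or without control 37), in place of 0. In place of no member, 1 had an unadjusted p under 0.05 for the strain under 6 alternatives: the Smad1 probe ILMN_2671572 on the linear scale, with no filter and with the t-test, and Id3 with sex as a term and without mutant 28 or 32. The 9 listed probes at an unadjusted p under 0.05 became 15 with no filter, 15 without control 17 and 16 without control 37. Signs turned in males for Id1 (0.39), Id2 (0.40) and the Smad5 probe ILMN_3155789 (0.01), and in females for the Smad1 probe ILMN_2953700 (-0.16) and the Smad5 probe ILMN_3076864 (-0.47). Without 1 mouse the strain difference ran from -0.84 to 0.02 for Id2 (above 0 without mutant 34), from -0.08 to 0.11 for ILMN_2953700 (below 0 without mutant 32, control 16 or control 17, at -0.0034, -0.08 and -0.02), from -0.05 to 0.01 for ILMN_3155789 (above 0 without mutant 34) and from -0.04 to 0.42 for ILMN_3076864 (below 0 without mutant 28 or 32, at -0.04 and -0.02). The interaction ran from -0.05 to 0.69 for Id4 (below 0 without mutant 35) and from -0.01 to 0.15 for ILMN_3155789 (below 0 without control 17). For Id3 all alternatives kept the sign, from -1.42 to -0.10 for the strain and from 1.12 to 1.49 for the interaction. The causes were not tested. No paired analysis was possible because no mouse number occurs in both strains.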
